A study of Mus musculus with 24 samples.

Results

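Integrins are cell surface receptors built of 1 α and 1 β subunit, through which leukocytes, stromal cells and tumor cells hold on to matrix and to each other. The 10 subunit genes described here were Itgb1, Itgb2, Itgb7, Itga4, Itga5, Itgav, Itgae, Itgal, Itgam and Itgax. The rule that defines them lists gene symbols and uses no measured value, but the symbols were chosen with earlier results of these data known. All 10 were among the 16996 genes with values. The RNA came from EMT6-hHER2 tumors, from cells enriched with beads for CD45+, the surface marker shared by leukocytes, with 1 library per mouse, 6 mice in each of 4 groups and 24 samples in all. EMT6-hHER2 is 1 clone of a mouse mammary carcinoma line that carries human HER2 on a transposon vector, so all 4 groups carry the human antigen. The hosts were immunocompetent females of strain Balb/c and genotype WT, labelled as 10 to 12 weeks old. When the tumors had grown to 80 mm3, the mice were left untreated or received 1 injection of trastuzumab at 20 mg/kg, T-DM1 at 15 mg/kg or T-PNU at 1 mg/kg, and the cells were taken 10 days later. Trastuzumab is an antibody to human HER2, T-DM1 is trastuzumab coupled to a microtubule poison, and T-PNU is trastuzumab coupled to an anthracycline. The doses of the 3 agents differ, so payload and dose cannot be told apart. The paper reports that T-PNU tumors were smaller at harvest than at treatment, and that trastuzumab and T-DM1 did not prevent tumor growth. In comparisons with T-PNU, the agent and the regression of the tumor therefore cannot be told apart. The paper also describes 4 of the T-PNU samples as high-responding and marks others as low-responding. All 6 were kept here as 1 group.

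The β2 integrins are largely restricted to leukocytes. Itgb2 pairs with Itgal to form LFA-1, which T cells use to stick to ICAM molecules, and with Itgam or Itgax to form the complement receptors of myeloid and dendritic cells. Itgb7 pairs with Itga4 in a gut-homing receptor and with Itgae in the receptor for E-cadherin that marks tissue-resident T cells and some dendritic cells. Itgb1 is the shared β subunit of many cell types: with Itga4 it forms VLA-4, a receptor for VCAM-1 and fibronectin on leukocytes, and with Itga5 the classical fibronectin receptor. Itgav belongs to the RGD-binding receptors for vitronectin, fibronectin and latent TGF-β.

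The deposited values are log2 expression normalized for library size, and they run from 1.13 to 19.70 with sample medians between 8.73 and 8.87. The kind of log transformation is not given in the sources used here, and without counts the depth behind each value is unknown. In its heatmaps the study labels 20 samples and not the other 4, which are B1 and C1 among the untreated and B3 and E2 among the trastuzumab samples. Its methods describe a removal of possible outliers by similarity of expression but name no sample, so if these 4 were removed that way, the fit of the 20 rests on samples chosen by the values tested. All 24 samples were fitted first, and the fit of the 20 is given beside it, because many calls depend on these 4. The number that ends a sample's name (1, 2 or 3) is 1 in all untreated and 3 in all T-DM1 samples and never the same in T-PNU and T-DM1, so whatever it stands for cannot be told apart from treatment there. CD45 itself (Ptprc) was high in every sample, at 14.01 to 15.52. Genes of cells that lack CD45 were present too: the collagen gene Col1a2 ranged from 13.47 to 16.17. In the tumor and epithelial list levels differed widely between genes, from 11.69 to 13.77 for the keratin gene Krt8 to 6.34 to 8.68 for Epcam and 3.20 to 4.67 for the claudin gene Cldn3, and Krt8 and Epcam ran opposite ways, with means of 13.48 and 7.16 after T-DM1 and 12.52 and 8.00 after T-PNU. Samples of 1 group also stood apart in marker lists, whose level is the mean over the list's genes of their log2 deviation from the average of the 24 samples. In T-PNU samples G1 and A2 the T cell list stood at -0.44 and -0.27, against 0.80 to 1.88 in the other 4, and the proliferation list at 0.16 and 0.10, against -0.91 to -0.25. In such bulk samples, fewer cells of a type and less RNA per cell cannot be told apart.

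Per kilobase of annotated exon, on a log2 scale over all 24 samples, Itgb2 (12.87) and Itgb1 (12.73) were the most abundant subunits, followed by Itga5 (12.03), Itgb7 (11.02), Itgam (10.30) and Itgal (10.04). Below them lay Itgax (9.21), Itgav (8.93), Itga4 (7.93) and Itgae (5.44). This order depends on the annotated exon length, from 2770 bases for Itgb7 to 10744 for Itgav and 13978 for Itga4. Without the division by length, Itga4 (11.74) lay above Itgax (11.47), and Itgb1 (14.76) above Itgb2 (14.48). In this bulk RNA the β subunit shared by many cell types and the leukocyte subunit Itgb2 thus had like levels, and the cells that the RNA came from were not resolved. The SDs of single subunits over the 24 samples ran from 0.23 for Itgax to 0.54 for Itgae, so that Itgb2 and Itgb1, and likewise Itgam and Itgal, stood closer together than the samples spread. The order of the leading pair depended on the group, with Itgb1 above Itgb2 in untreated (12.88 against 12.83) and T-DM1 (12.82 against 12.71) samples, and Itgb2 above Itgb1 in trastuzumab (12.90 against 12.77) and T-PNU (13.03 against 12.46) samples.

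Promoters of 4 of the members that were called between groups in at least 1 fit are shown, 160 bases up to the start of transcription in the RefSeq table for GRCm38.p6. Itgam, called between T-PNU and T-DM1 in the fit of 20 samples, has a promoter there that is not printed. Itga4 lies on chr2:79255266-79255425, plus strand; Itga5 on chr15:103366792-103366951, minus strand; Itgb1 on chr8:128685494-128685653, plus strand; and Itgb7 on chr15:102231936-102232095, minus strand. Each is written 5′ to 3′ along its gene, and capitals mark matches to the searched letters on either strand.
Itga4: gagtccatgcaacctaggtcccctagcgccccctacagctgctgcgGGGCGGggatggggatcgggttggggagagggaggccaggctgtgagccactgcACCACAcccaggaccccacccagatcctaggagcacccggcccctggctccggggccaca
Itga5: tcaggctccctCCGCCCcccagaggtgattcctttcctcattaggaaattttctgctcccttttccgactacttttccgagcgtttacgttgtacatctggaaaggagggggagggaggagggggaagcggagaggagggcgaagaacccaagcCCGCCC
Itgb1: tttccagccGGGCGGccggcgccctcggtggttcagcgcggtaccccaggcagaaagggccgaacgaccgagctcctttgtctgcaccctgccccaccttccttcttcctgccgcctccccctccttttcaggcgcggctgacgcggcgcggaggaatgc
Itgb7: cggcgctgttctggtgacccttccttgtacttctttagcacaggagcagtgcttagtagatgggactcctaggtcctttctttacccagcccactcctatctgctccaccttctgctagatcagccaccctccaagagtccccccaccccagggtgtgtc

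The table held promoters of 7 members, and Itgb2, Itgae and Itgal are named only. The letters searched in the 250 bases before the start, on both strands and with no overlap between matches in the 4 stretches shown, were the GC box GGGCGG, the ETS-type GAGGAAG, the RUNX-type TGTGGT, the CRE-type TGACGT and the TATA-type TATAAA. The GC box was found once in Itgb1, Itga4 and Itgam and 2 times in Itga5, and in 32.9% of all 27025 promoters. The RUNX-type letters, on the minus strand at position -60 of Itga4, were in 14.2% of all promoters. ETS-type letters occurred in Itgav and Itgam and in 10.4% of all promoters. The CRE-type and TATA-type letters, in 6.56% and 13% of all promoters, were in no member's window, and Itgb7 and Itgax had no match of the 5. GC content of the stretches shown was 70% for Itga4, 69.4% for Itgb1, 57.5% for Itga5 and 56.2% for Itgb7, against a median of 53.8% over all promoters.

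The clearest differences among the subunits lay between the 2 antibody-drug conjugates. Itga4, the α subunit of VLA-4, and Itgal, the α subunit of LFA-1, were higher in every T-PNU sample than in every T-DM1 sample, while Itga5, the α subunit of the fibronectin receptor, was lower. The fit of all 24 samples with limma called 3 of the 10 members at a Benjamini-Hochberg adjusted p under 0.05 in this comparison, in which 29.8% of all genes were called, so the share of members called was that of genes at large. With the 20 samples, 8 of the 10 members were called, against 39.9% of all genes. Neither of these groups loses a sample among the 20, and the fold changes are the same in both fits. What differs is the SE, for Itga4 0.18 with 24 samples and 0.13 with 20, because the model pools the variance over all 4 groups. The added calls and smaller p-values with 20 samples therefore rest on no new values of these groups. Over the 10 members the median log2 difference was 0.33, and over all genes 0.03.

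Itga4 (ENSMUSG00000027009, chr2:79255426-79333123, GRCm38) ranged in the T-PNU samples from 11.80 in G1 to 12.52 in C2, with a median of 12.04. In the T-DM1 samples it ranged from 11.02 in F3 to 11.50 in C3, with a median of 11.28. All 6 T-PNU samples thus lay above all 6 T-DM1 samples, a separation that 13.2% of all genes had between these groups. The means were 12.11 ± 0.30 (SD, n = 6) and 11.26 ± 0.17 (SD, n = 6), a log2 difference of 0.86 (SE 0.18, limma adjusted p = 0.0031) or 1.81-fold on the scale of the deposited values. With the 20 samples the adjusted p was 0.000146.

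Itgal (ENSMUSG00000030830, chr7:127296260-127335138) separated the same groups. Its values ran from 12.84 to 13.19 with a median of 13.03 after T-PNU and from 11.98 to 12.80 with a median of 12.48 after T-DM1. The lowest T-PNU sample, A2, lay just above the highest T-DM1 sample, C3. The log2 difference was 0.56 (SE 0.15, limma adjusted p = 0.0109 and 0.00115 with the 20 samples). Among the members, Itgal had the narrowest spread after T-PNU save Itgb2, with an SD of 0.13 for both.

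Itga5 (ENSMUSG00000000555, chr15:103344286-103366763) ran the other way. It ranged from 13.49 in C2 to 14.47 in A2 after T-PNU, with a median of 14.04, and from 14.34 in G3 to 14.98 in F3 after T-DM1, with a median of 14.68. Of the T-PNU samples, 5 lay below all T-DM1 samples, and A2 lay within their range. The log2 difference was -0.62 (SE 0.21, limma adjusted p = 0.0307 and 0.00338 with the 20 samples). The call was lost when T-PNU H1 or C2 or T-DM1 E3, F3 or H3 was left out, with adjusted p between 0.0506 and 0.0824. With the number in the sample name as a covariate, none of Itga4, Itgal and Itga5 was called (differences of 0.75, 0.66 and -0.73, limma adjusted p = 0.360, 0.347 and 0.412), and 0% of all genes were called between these groups in that fit. Without T-PNU G1 or without A2, all 3 stayed called, at limma adjusted p up to 0.0244.

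The other leukocyte subunits did not pass the test between these groups in the fit of 24 samples. Their differences, T-PNU minus T-DM1, were 0.66 for Itgae (adjusted p = 0.0773), 0.42 for Itgam (0.0889), 0.34 for Itgb7 (0.120) and 0.32 for Itgb2 (0.0676) with limma. The shared β subunit Itgb1 differed by -0.37 (adjusted p = 0.0936). In the fit of 20 samples these 5 were called, with limma adjusted p from 0.00757 for Itgb2 to 0.0426 for Itgb7. Itgax, at 0.12, and Itgav, at -0.09, were called in neither fit, with 95% intervals in the fit of 24 samples of -0.16 to 0.40 and -0.40 to 0.23.

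**Figure D1:**
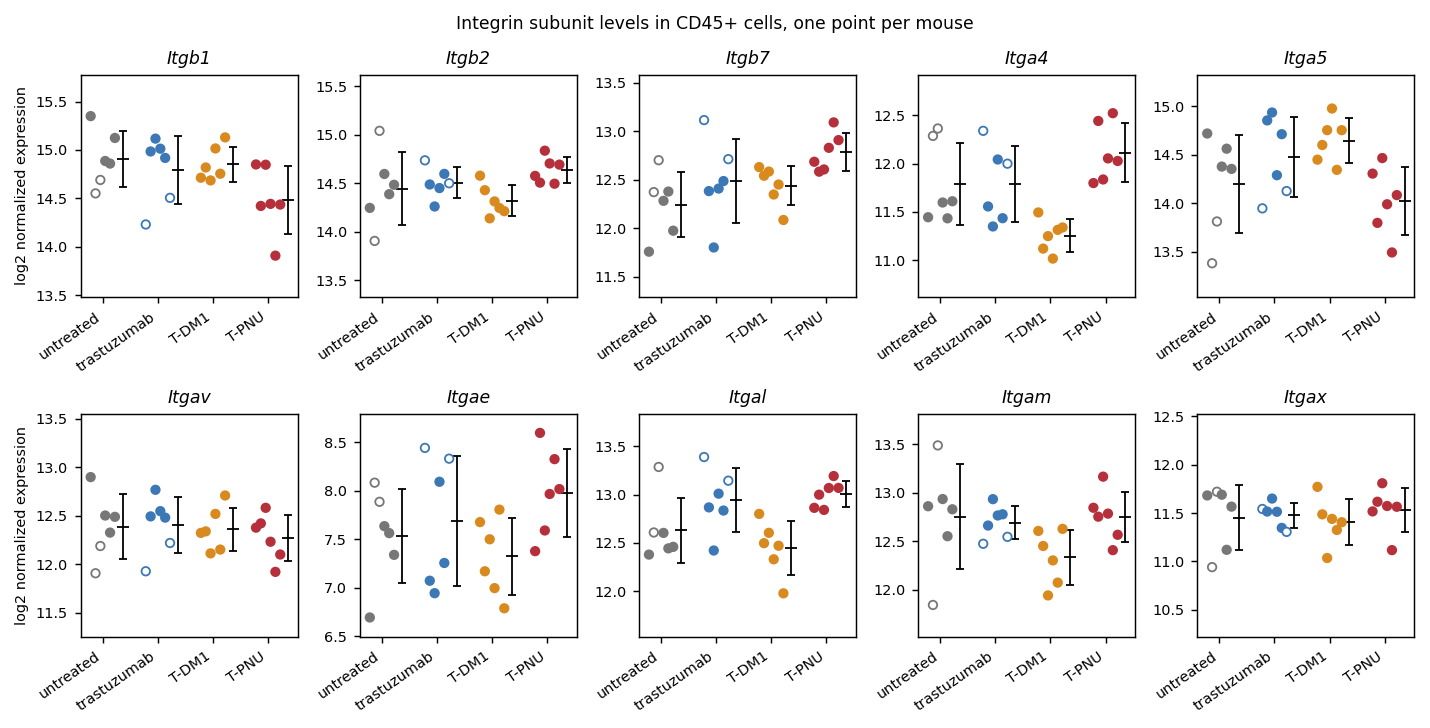
Log2 normalized expression (y axis) of the 10 subunits by treatment group (x axis), 1 point per mouse, with the mean and SD of 6 mice beside each group; open points are the 4 samples without a label in the study's heatmaps, and every panel spans the same log2 range. T-PNU points lie above all T-DM1 points for Itga4 and Itgal, and the open untreated and trastuzumab points lie towards the T-PNU points for Itga4, Itga5 and Itgb1.

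Marker lists of several cell types differed between these groups too, not all in the same direction. The fibroblast and stroma list (9 of 9 genes measured) stood at 0.59 ± 0.08 (SD, n = 6) after T-DM1, between 0.46 and 0.70, and at -0.51 ± 0.52 (SD, n = 6) after T-PNU, from -1.37 in C2 to 0.06 in G1, with no overlap. The pan-leukocyte list (5 of 5 measured) ran the other way, from -0.43 to -0.05 after T-DM1 and from -0.08 to 0.60 after T-PNU. The list of conventional type 1 dendritic cells (8 of 8 measured) did not overlap either, at -0.47 to -0.11 after T-DM1 and 0.07 to 0.32 after T-PNU. The macrophage and monocyte list averaged -0.29 and 0.25, and the CD8 and cytotoxic list -0.30 and 0.47. Other lists of cells without CD45 did not follow the stroma list. The endothelial list averaged -0.29 after T-DM1 and 0.37 after T-PNU, and the tumor and epithelial list 0.09 and 0.16. Of the pan-leukocyte genes, Ptprc averaged 15.09 after T-PNU and 14.33 after T-DM1, and Col1a2 of the stroma list 14.51 and 15.87. The lowest gene of the stroma list, the proteoglycan gene Lum, ranged from 6.05 to 8.52 over the 24 samples. No gene of the pan-leukocyte list was below 13.17. Some genes of the other lists lay lower. In the list of conventional type 1 dendritic cells, Snx22 was at most 4.83 and Batf3 ranged from 4.59 to 6.15. Whether such low values stand above background was not tested. The share that a change in the mix of cells had in the differences of Itga4, Itgal and Itga5 was not tested.

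Against untreated tumors, no member passed the test over all 24 samples, and 5 of the 10 did with the 20. In the fit of 24 samples 0.188% of all genes were called in this comparison, and 3 members had an unadjusted p under 0.05 (Itgb7, Itgb1 and Itgal). Of all 16996 genes, 4218 had an unadjusted p under 0.05 there in limma. In the fit of 20 samples 31.1% of all genes were called. Of the members, Itgb7, Itga4 and Itgal were called higher there, against 15.3% of all genes called higher, and Itgb1 and Itga5 lower, against 15.7% called lower.

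Itgb7 had the largest difference of the members. Its T-PNU values ran from 12.58 to 13.09 with a median of 12.76, and its untreated values from 11.76 in A1 to 12.70 in C1 with a median of 12.33. Of the T-PNU samples, 3 lay above all 6 untreated ones. The log2 difference was 0.54 (SE 0.17, limma adjusted p = 0.0821), and 0.69 (SE 0.15, limma adjusted p = 0.00484) with the 20 samples. Without untreated C1 alone, the difference of Itgb7 was 0.63 (limma adjusted p = 0.0171) and that of Itgal 0.51 (limma adjusted p = 0.0178).

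Itgb1 (ENSMUSG00000025809, chr8:128685654-128733200) was lower after T-PNU, at 13.91 to 14.85 with a median of 14.44, than in untreated tumors, at 14.55 to 15.35 with a median of 14.87. The log2 difference was -0.43 (SE 0.17, limma adjusted p = 0.128), and -0.57 (SE 0.15, limma adjusted p = 0.0110) with the 20 samples. T-PNU samples G1 and A2, the samples with the low T cell list, lay within the untreated range, and the other 4 lay below it.

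Itga4 showed how much rested on the samples left out of the heatmaps. Untreated B1 and C1 had 12.29 and 12.36, within the T-PNU range, and the other 4 untreated samples lay between 11.43 and 11.61. Its difference between T-PNU and untreated was 0.32 (SE 0.18, limma adjusted p = 0.266) with them and 0.59 (SE 0.14, limma adjusted p = 0.00838) without them. Itga5 moved likewise, from -0.18 (adjusted p = 0.591) to -0.48 (adjusted p = 0.0359), as B1 and C1 had the lowest untreated values of Itga5. For Itgal the difference was 0.37 (adjusted p = 0.143) and 0.53 (adjusted p = 0.00762), all with limma. In the 20 samples, Itgb1, Itgb7, Itga4 and Itgal did not overlap between T-PNU and untreated, as did not 15.9% of all genes.

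The 4 samples without a heatmap label are described here by their marker lists. The T cell list (10 of 10 genes measured) reached 1.52 in B1 and 1.22 in E2, against group means of -0.32 in untreated and -0.08 in trastuzumab samples and of 0.65 after T-PNU, where C2 had the highest level of all, 1.88. In B1 the B cell list (8 of 8 measured) stood at 1.88 and the macrophage list (11 of 11 measured) at -0.95, the lowest of the untreated samples. Trastuzumab B3 had 0.78 in the T cell list and 1.93 in the B cell list. Untreated C1 had the highest macrophage list (0.79) and CD8 and cytotoxic list (1.06) of its group, and the lowest fibroblast and stroma list (-0.92), followed by B1 (-0.56). The high Itga4 and low Itga5 of B1 and C1 thus went with low stroma levels. Itgam and Itgax, which are myeloid subunits, also had their lowest values of all 24 samples in B1, at 11.84 and 10.94. The part of these cells in the differences was not tested.

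Itgae, Itgb2, Itgav, Itgam and Itgax did not pass the test against untreated tumors in either fit. The difference of Itgae was 0.45 with 24 samples and 0.67 (limma adjusted p = 0.0599) with 20. Itgam and Itgax differed by 0.0025 and 0.08 with 24 samples, with 95% intervals of -0.38 to 0.39 and -0.20 to 0.36. For Itgam the sign turned to -0.04 with 20 samples.

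**Figure D2:**
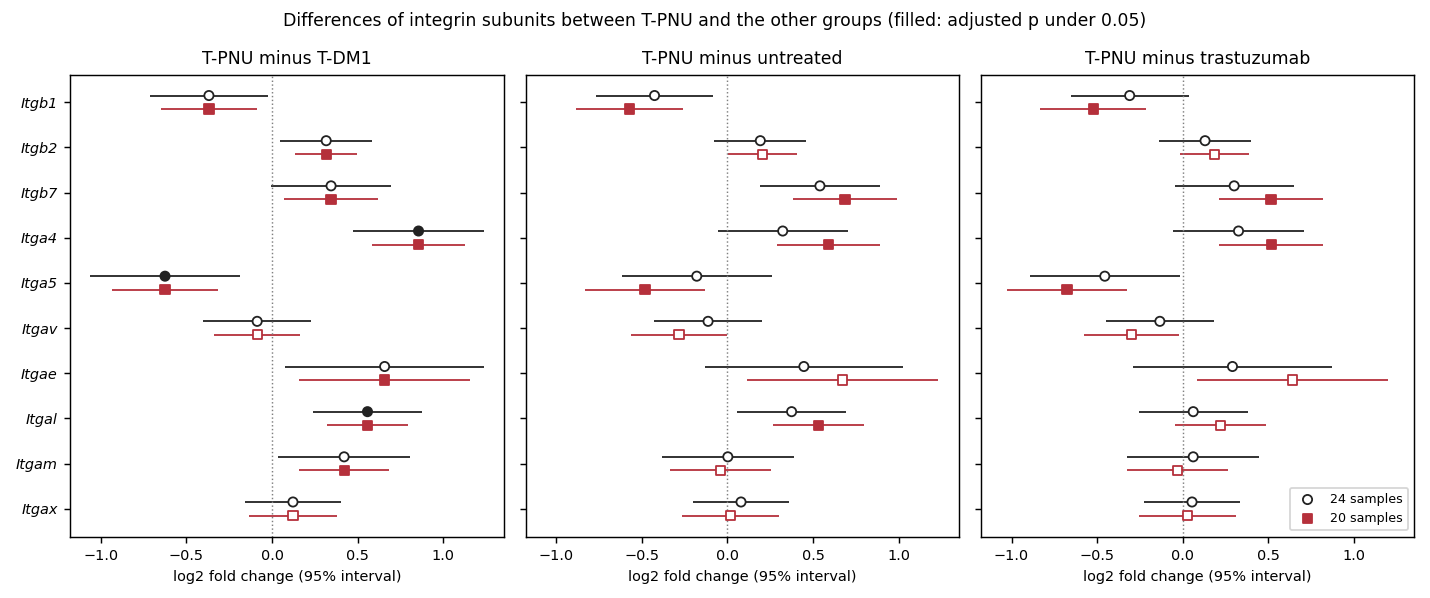
Log2 fold change with its 95% interval (x axis) of the 10 subunits (y axis) for T-PNU minus T-DM1, untreated and trastuzumab, in the limma fits of 24 samples (circles) and 20 samples (squares); filled symbols passed an adjusted p under 0.05. Only the T-DM1 panel has filled circles, for Itga4, Itga5 and Itgal, while filled squares stand in all 3 panels.

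Against trastuzumab, the naked antibody, the fit of 24 samples called no member and 0.00588% of all genes. An unadjusted p under 0.05 in limma was found for 1 member, Itga5, and for 3308 of all 16996 genes. The fit of 20 samples called 4 members and 28% of all genes. These were Itga5 at -0.68 (SE 0.17, limma adjusted p = 0.0124), Itga4 at 0.52 (0.0187), Itgb7 at 0.51 (0.0196) and Itgb1 at -0.52 (0.0197). Itgb1 and Itgb7 did not overlap between T-PNU and these 4 trastuzumab samples, and 10.6% of all genes did not. With all 6 trastuzumab samples, the same differences were -0.46, 0.33, 0.30 and -0.31. Trastuzumab E2 had the highest Itgb7 of all samples, 13.12, and the lowest Itgb1 of its group, 14.23.

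No member passed the test between T-DM1 or trastuzumab and untreated samples, or between T-DM1 and trastuzumab. T-DM1 against untreated called 6.27% of all genes with 24 samples and 2.01% with 20. With 24, 3 members and 3973 of all 16996 genes had an unadjusted p under 0.05 in limma. The members were Itga4 at -0.53 (limma adjusted p = 0.0808), Itgam at -0.42 (0.175) and Itga5 at 0.45 (0.206). Trastuzumab against untreated called 0.259% of all genes with 24 samples and 0% with 20, where 865 genes had an unadjusted p under 0.05 in limma. No member had an unadjusted p under 0.05 with 24 samples, where 1491 of all genes had, and 1, Itgal, did with 20. T-DM1 against trastuzumab called 0.647% and 0.812% of all genes. Itga4 at -0.53 (limma adjusted p = 0.171) and Itgal at -0.50 (limma adjusted p = 0.128) had an unadjusted p under 0.05 with 24 samples, as had 2604 of all genes. In these values Itga4 after T-DM1 lay on the far side of untreated from T-PNU. The T-PNU comparisons share the T-PNU samples, and those with untreated share the untreated ones, so they are not independent.

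Asked whether a member differed among the 4 groups at all, limma's F test called Itga4 (adjusted p = 0.0192) and Itgal (adjusted p = 0.0318) with 24 samples, beside 18.8% of all genes. With 20 samples it called 7 members, all but Itgav, Itgae and Itgax, beside 40.8% of all genes.

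The subunits fell into opposed sets across mice. Over the 24 samples, Itgb1 went with Itgav (Pearson r = 0.85) and with Itga5 (r = 0.77), and against Itgb7 (r = -0.88) and Itgae (r = -0.84). Itga4 went with Itgae (r = 0.82) and Itgal (r = 0.79), and against Itga5 (r = -0.90). These are descriptions with no p, since the samples share their groups. Within groups, after the group means were removed, the same pairs had r = 0.91, 0.83, -0.84, -0.83, 0.82, 0.72 and -0.93, so the division held among mice given the same treatment too.

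Known partners did not always go together. Itgb1 rose and fell with its partners Itga5 and Itgav but ran against Itga4 (r = -0.71, Spearman rho = -0.61), with which it forms VLA-4. Itgb7, the other partner of Itga4, had r = 0.58 with Itga4 and r = 0.73 with Itgae. Itgb2 went with each of its partners, at r = 0.73 for Itgam, 0.68 for Itgal and 0.63 for Itgax. Itgam and Itgax went together (r = 0.78) and apart from Itgal, at r = 0.24 and 0.14. The Itgb2 transcripts thus followed Itgal as well as Itgam and Itgax, while Itgal hardly followed these last. Itgb2 itself had r = 0.12 with the T cell marker list, and Itgal r = 0.85 with that of conventional type 1 dendritic cells and 0.69 with that of T cells. Without the 2 most extreme samples of the first gene, the r of Itgb2 with Itgam fell to 0.50.

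**Figure D3:**
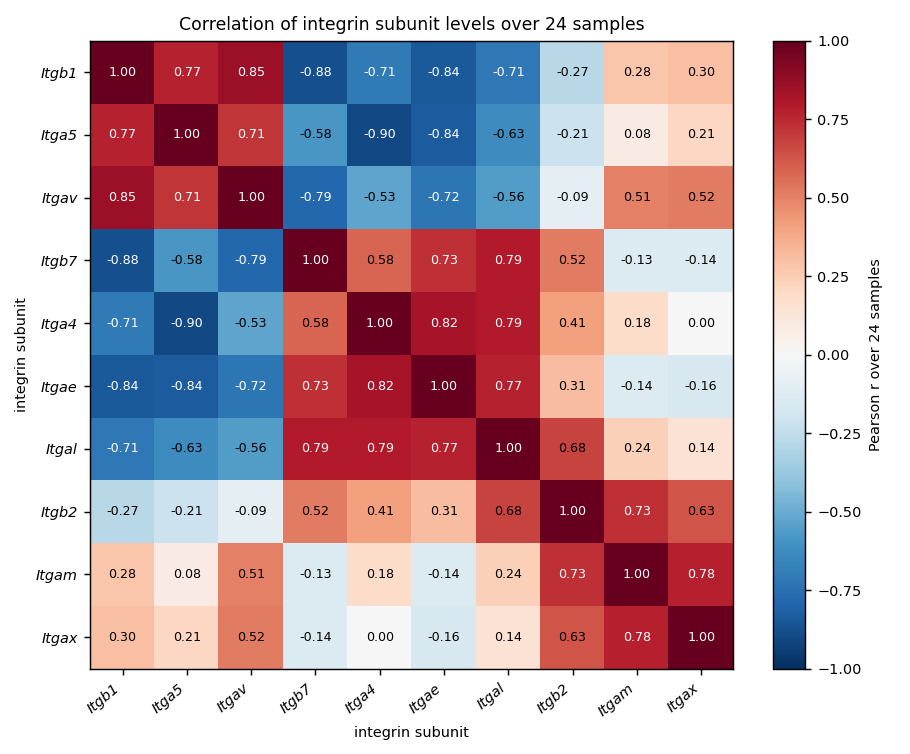
Pearson r over 24 samples between each pair of the 10 subunits, by color and number, with subunits on both axes ordered by the sets described. Itgb1, Itga5 and Itgav form a positive block that is negative towards Itgb7, Itga4, Itgae and Itgal, and Itgam and Itgax form a block of their own with Itgb2.

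Several marker lists divided the subunits in the same way. The T cell list had r = 0.86 with Itgae, 0.81 with Itgb7, 0.70 with Itga4 and 0.69 with Itgal, and r = -0.94 with Itgb1 and -0.88 with Itgav. The list of CD8 and cytotoxic cell genes (10 of 10 measured) had its highest r with Itgal, 0.90. The macrophage and monocyte list had r = 0.90 with Itgam, 0.89 with Itgb2 and 0.72 with Itgax. The fibroblast and stroma list had r = 0.85 with Itga5 and -0.91 with Itga4, and within groups 0.81 and -0.88. Of all lists, the pan-leukocyte list had the highest r with Itga4, 0.92. The proliferation list (7 of 7 measured) had r = 0.92 with Itgb1 and -0.80 with Itgb7. The tumor and epithelial list did not rise with the subunits opposed to the T cell list. It had r = -0.39 with Itgb1, -0.52 with Itgav and -0.25 with Itga5, and 0.47 with Itgb7, though its genes Krt8 and Epcam ran opposite ways. The 24 points share library, depth and the mix of cells, and some genes stand in 2 lists: Ccr7 is in the naive lymphocyte list and in that of other dendritic cells, Itga2b and Itgb3 of the other integrin subunits are also in the platelet list, and of the ligands Thy1 is in the T cell list and Cdh1 in the tumor and epithelial list.

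**Figure D4:**
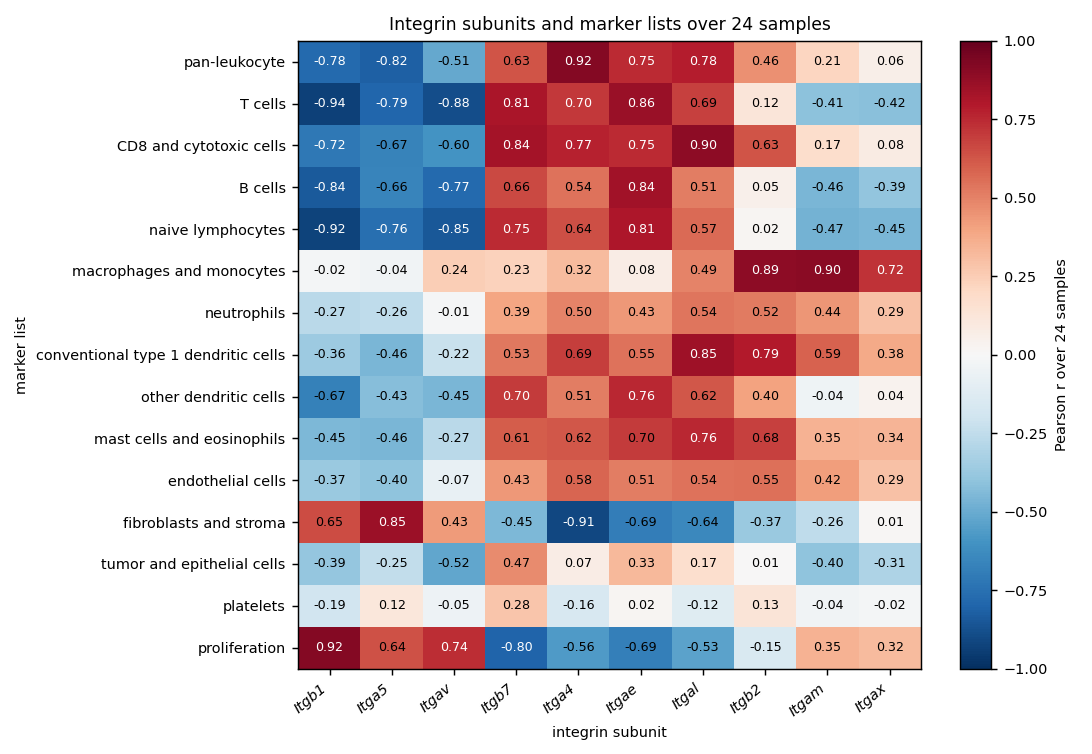
Pearson r over 24 samples between the level of each of 15 marker lists (y axis) and each of the 10 subunits (x axis), by color and number. Lymphocyte lists are negative with Itgb1, Itga5 and Itgav and positive with Itgb7, Itga4, Itgae and Itgal, and the macrophage list is highest with Itgb2 and Itgam.

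The 3 genes most like each subunit, out of all 16996 by Pearson r over the 24 samples, were as follows. For Itga4 they were Lpar6, Tbcel and Ptprc, which encodes CD45 itself (r = 0.97, 0.97 and 0.96). For Itgal they were Irf8, a myeloid and dendritic cell transcription factor, Psen2 and Prex1 (r = 0.93 to 0.94), and for Itgb7 the peptide-loading genes Tapbpl and Tap1 and the lipase gene Lipe (r = 0.94, 0.94 and 0.93). For Itgam they were Fcgr2b, an inhibitory Fc receptor, the protease gene Ctsc and Pilra (r = 0.96 to 0.97), for Itgb2 Acvrl1, Hal and Tmem51 (r = 0.94 to 0.95), and for Itgax Havcr2, which encodes TIM-3, Nol4l and Cxcl16 (r = 0.84 to 0.87). For Itgb1 they were Fnbp1l, Zfyve9 and Kifap3 (r = 0.97 to 0.98), for Itga5 Rassf8, Srxn1 and the signaling inhibitor Spry2 (r = 0.94 to 0.95), and for Itgav Mapk6, Rbpj and the hyaluronan receptor Cd44 (r = 0.93 to 0.95). Cacna1e, Chst15 and Hepacam2 were most like Itgae (r = 0.94), the least abundant member.

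The list of 17 other integrin subunits counts among them Itgbl1, which is integrin-like and not itself a subunit. Of the 17, 8 fell and 1 rose in T-PNU against T-DM1 samples with 24 samples, beside 17.4% of all genes called lower and 12.4% called higher. The falls were Itgbl1, an integrin-like gene, at -1.63 (SE 0.27, limma adjusted p = 0.000967), Itgb8, a partner of Itgav in the activation of TGF-β, at -1.14 (0.00243), the epithelial partner of Itgav, Itgb6, at -0.80 (0.00780), the laminin receptor subunits Itga3 at -0.76 (0.0141), Itgb4 at -0.76 (0.0358) and Itga7 at -0.46 (0.0279), the platelet subunit Itga2b at -0.60 (0.00323) and the collagen receptor subunit Itga2 at -0.59 (0.0466). Itga9, whose receptor binds VCAM-1 and osteopontin, rose by 0.54 (limma adjusted p = 0.0471). The median log2 difference over the 17 was -0.40. The level of the stroma list given above moved with them. The tumor and epithelial list did not, at 0.09 after T-DM1 and 0.16 after T-PNU. Within it Krt8 averaged 13.48 and 12.52, and Epcam 7.16 and 8.00. The part of either kind of cell in these falls was not tested.

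T-DM1 samples against untreated had 2 of these 17 called, both higher, beside 4.11% of all genes called higher: Itgbl1 at 1.22 (limma adjusted p = 0.0118) and Itgb4 at 1.08 (0.0202). Itgbl1 was higher than after trastuzumab too, at 1.15 (limma adjusted p = 0.0447). With the 20 samples none of these 3 calls remained, at limma adjusted p of 0.0507, 0.127 and 0.0944. T-PNU against untreated called none of the 17 with 24 samples in limma, where 1 had an unadjusted p under 0.05, beside 4218 of all 16996 genes. With 20 samples it called 7, 1 higher and 6 lower, where 15.3% of all genes were called higher and 15.7% lower. The 2 highest differences with 24 samples were Itgb3, a platelet and macrophage subunit, at 0.70 (limma adjusted p = 0.243) and the laminin receptor subunit Itga6 at 0.37 (0.549), and the 2 lowest Itga2 at -0.56 (0.133) and Itgbl1 at -0.41 (0.331).

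**Figure D5:**
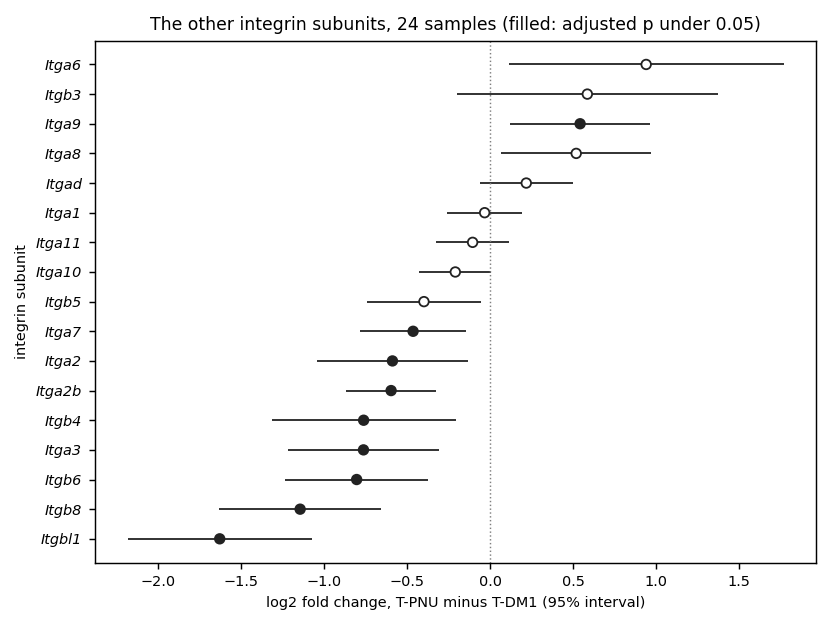
Log2 fold change of T-PNU minus T-DM1 with its 95% interval (x axis) for the list of 17 other integrin subunits, with the integrin-like Itgbl1 (y axis). Values are from the limma fit of 24 samples, and filled points passed an adjusted p under 0.05. The filled points lie below 0, from -1.63 for Itgbl1 to -0.46 for Itga7, except Itga9 at 0.54.

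Integrins signal through adaptors that link their tails to actin and through inside-out activators. Of 45 such genes, 11 rose and 15 fell in T-PNU against T-DM1 samples, where 12.4% of all genes rose and 17.4% fell. Against untreated tumors limma called none with 24 samples, where 14 had an unadjusted p under 0.05, beside 4218 of all 16996 genes. With 20 samples it called 23, 13 higher and 10 lower, where 31.1% of all genes were called. The 2 lowest differences from untreated were those of Tln2, a talin, at -0.80 (limma adjusted p = 0.0677), and Fermt2, a kindlin of cells other than blood cells, at -0.79 (0.0917). With the 20 samples Tln2 stood at -1.06 (limma adjusted p = 0.00325) and Fermt2 at -1.06 (0.00485), and both fell against T-DM1, by -1.11 (0.00209) and -1.02 (0.00779) with 24 samples. The 2 highest were Skap1, a T cell adaptor, at 0.99 (limma adjusted p = 0.292), and Rasgrp2, which activates RAP1 in platelets and lymphocytes, at 0.98 (0.334). Neither passed the test against T-DM1.

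The ligand list held 39 symbols, 3 of them second names of others, and 33 had values, of which 4 rose and 12 fell in T-PNU against T-DM1 samples, beside the same 12.4% and 17.4% of all genes. Against untreated limma called none with 24 samples, where 11 had an unadjusted p under 0.05, again beside 4218 of all 16996 genes. With 20 samples it called 13, 5 higher and 8 lower, again beside 31.1% of all genes. The lowest differences from untreated were those of fibronectin, Fn1, the main ligand of Itga5 with Itgb1, at -0.77 (limma adjusted p = 0.146), and Edil3, a ligand of Itgav receptors, at -0.73 (0.0997). Against T-DM1 both fell, by -1.27 (limma adjusted p = 0.00669) and -1.21 (0.00274), in the same direction as Itga5. The highest were the fibrinogen gene Fgb at 1.03 (limma adjusted p = 0.129) and Thy1, which T cells and fibroblasts carry, at 0.93 (0.104). Thy1 was called with the 20 samples (1.41, limma adjusted p = 0.00388).

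Some member loci overlap other annotated genes. Mir6963 overlaps Itga5 and Gm49368 overlaps Itgam on the same strand, so reads there could be shared. Cerkl overlaps Itga4, Haspin overlaps Itgae, and Gm13684 and Dnmt3l-ps1 overlap Itgav on the opposite strand, from which stranded counting keeps reads apart.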

How the data were processed

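The authors aligned reads with STAR 2.4.2a, per their notes to mm10, counted reads per gene by strand with featureCounts (Subread 1.5.0) and removed genes averaging fewer than 5 counts. The deposited log2 values, normalized for library size, were used as they stand; the transformation is not given in the sources used here. Linear models (lmFit, contrasts.fit, eBayes with a trend; limma 3.58.1, R 4.3.3) were fitted to all 24 samples in 4 groups, and again to the 20 labelled in heatmaps, with adjustment over 16996 genes. The fit was tested on simulated data. GENCODE M21 held 99.7% of the gene IDs and gave positions and exon lengths; promoters came from RefSeq (GRCm38.p6). The choice of these 10 symbols, of the lists and of the tests was made with earlier results of these data known. Genes named outside the members are the 2 highest and 2 lowest T-PNU minus untreated differences of each pathway list, other integrin subunits called in any comparison of the 24-sample fit, and the 3 genes most like each member. Alternatives were other samples, normalization, filter, groups in the fit, weights, thresholds, a covariate and leaving out each sample. The p-values measure the spread between these mice. Plots used matplotlib 3.10.9 under Python 3.11.15.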

Additional observations from a re-analysis of the deposited data

Results flagged for a closer look

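Itgal in untreated sample C1 was 13.3, while the other 5 untreated samples lay between 12.4 and 12.6. The gap to the nearest sample took 0.748 of the range of the group, above the critical value of 0.625 for 6 samples. It was 1 flag of 40 tests of a group and a member, and chance flags about 1 in 20. C1 is one of the 4 samples without a label in the heatmaps, and it also had the highest pan-leukocyte level of the untreated samples (0.38) and the highest Itgam and Itgb2 of all 24 samples (13.5 and 15.0). Without C1 the difference of Itgal between T-PNU and untreated was 0.51 (limma adjusted p = 0.0178), and with it 0.37 (limma adjusted p = 0.143).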

How the results depend on the processing

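Calls of members depended on the samples and the model fitted. The share of all genes called stands in brackets. T-PNU against T-DM1 called 3 members in all 24 samples (29.8%), 8 in the 20 samples labelled in heatmaps (39.9%), 5 after quantile normalization (29.1%), 7 with only the 2 groups (32.8%), 8 with sample weights (44.6%), and 0 at a false discovery rate under 0.01 with a fold above 2 (1.91%). Against untreated and trastuzumab, T-PNU called 0 and 0 (0.188% and 0.00588%), 5 and 4 with the 20 samples (31.1% and 28%), and 4 and 1 with weights (34.3% and 13.3%). T-DM1 against untreated and against trastuzumab called 2 each with weights (19.4% and 7.25%). The lowest weights fell on untreated B1 (0.22) and C1 (0.29), T-PNU C2 (0.29) and trastuzumab E2 (0.38). As B1, C1 and E2 are also left out of the 20 samples, the weighted fit is not independent of that choice. The F test called 2 members (18.8%), 7 with the 20 samples (40.8%), 7 with weights (50.9%) and 0 at the stricter rate (2.05%). With the number in the sample name as a covariate, T-PNU against T-DM1 and the F test called 0 members and 0% and 0.0177% of all genes (Itga4 0.75, Itgal 0.66 and Itga5 -0.73, limma adjusted p = 0.360, 0.347 and 0.412). With the less abundant genes (mean at or under the median gene) left out, the counts of members called were those of the full table (3 for T-PNU against T-DM1), and Itgae, Itgbl1, Itgb6, Itga2, Itga2b, Itga7 and Fgb lay below this filter and have no value there. The covariate fit ties T-PNU and T-DM1, which share no number, only through trastuzumab samples.

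Of the list genes, T-PNU against untreated called 7, 23 and 13 of the other subunits, adaptors and ligands with the 20 samples (31.1% of all genes) and 0 of each with 24 (0.188%). T-DM1 against untreated called 0, 2 and 1 with 20 (2.01% of all genes) and 2, 4 and 5 with 24 (6.27%).

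Leaving out 1 sample gave 2 to 5 calls for T-PNU against T-DM1, with 18.5% to 34.6% of all genes. There were 2, with Itga5 lost, without T-PNU H1 or C2 or T-DM1 E3, F3 or H3, and 5 without untreated B1 or T-PNU G1. T-PNU against untreated had 0 to 2 calls (2 without C1, with 17.2% of all genes). T-DM1 against untreated had 0 to 1 (1 without B1, with 5.92% of all genes, or E1, with 9.57%). T-DM1 against trastuzumab had 0 to 1 (1 without C1, with 2.08%). The F test had 0 to 3. It called 0 without T-DM1 F3 (8.45% of all genes), and 3 without untreated B1 (22.7%) or C1 (28.1%) or trastuzumab E2 (20.9%) or G2 (18%). Itga4 and Itgal stayed called between T-PNU and T-DM1 without any 1 sample, at limma adjusted p up to 0.0114 and 0.0271. No paired analysis was possible because the labels give no replicate number that groups share.

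Among the differences given in the text, signs turned as follows. Itgam in T-PNU against untreated was -0.041 with the 20 samples, -0.0087 after quantile normalization and -0.042 with weights, and -0.031 against trastuzumab with the 20 samples. With the covariate, Itgav in T-PNU against untreated was 0.014, Itga6 -0.16, Itgax against T-DM1 -0.12 and against trastuzumab -0.040, and Itgb7 in T-DM1 and trastuzumab against untreated -0.20 and -0.042. Leaving out 1 sample, T-PNU minus untreated ranged from -0.18 to 0.15 for Itgam and from -0.023 to 0.16 for Itgax, T-PNU minus trastuzumab from -0.022 to 0.13 for Itgam, from -0.0011 to 0.14 for Itgax and from -0.043 to 0.15 for Itgal, and T-PNU minus T-DM1 from -0.16 to 0.43 for Fgb. The causes were not tested. Depth is unknown, so counting error could not be set beside the low values of Itgae.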
